A study of Homo sapiens with 6 samples.

Results

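The interferon-stimulated genes examined here are 40 genes that cells switch on in answer to interferon, and they were found by their symbols in the deposited tables of HK-2 cells with and without overexpression of *PPM1K*. All 40 symbols were present among the 31369 genes of the count table. RNA sequencing had been carried out on 6 samples, 3 of a control group (NC) and 3 of an overexpression group (OE). HK-2 is an established human line of kidney proximal tubule cells, and *PPM1K* encodes a mitochondrial phosphatase that activates the breakdown of branched-chain amino acids. The genotype entry was WT for NC and PPM1K overexpress for OE. The sample titles instead named shControl and shPPM1K. Every sample carried the time entry Day 10, the treatment entry "Chronic kidney disease" and the same account of a *PPM1K* plasmid delivered with Lipofectamine. Neither the labels nor the methods state whether NC received an empty plasmid, so delivery of a plasmid and expression of *PPM1K* cannot be told apart. The cell type entry was HK-2 throughout, although the cell line entries of 5 samples carried other numbers after HK. No label says that the 3 samples of a group came from separate cultures, so the p-values measure only the spread between these samples, which may be technical.

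Type I and type III interferons bind receptors on the cell surface, and the kinases JAK1 and TYK2 then phosphorylate STAT2. The complex ISGF3, which holds STAT2 and IRF9, binds the interferon-stimulated response element (ISRE) in the promoters of antiviral genes. Interferon gamma acts through JAK1 and JAK2 on genes with a gamma-activated site (GAS). Tubule epithelial cells, like most cells with a nucleus, carry these receptors and keep a low level of many of the target genes without an added interferon.

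Many of these genes share the ISRE, and windows of 60 bases from 10 of their promoters are printed here to set genes that were higher, lower and not called in OE side by side. The ISRE core was searched as GAAANNGAAA on both strands, where its reverse reads TTTCNNTTTC, in the RefSeq promoters of GRCh38.p14 (250 bases before to 50 after the start site). Each window is written 5′ to 3′ in the direction of the gene and capitals mark the ISRE cores. The first 5 genes were higher in OE, the next 3 lower, and the last pair did not pass the test.
RSAD2, chr2:6877607-6877666, plus strand: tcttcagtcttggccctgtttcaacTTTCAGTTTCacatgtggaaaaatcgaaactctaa
ISG20, chr15:88638922-88638981, plus strand: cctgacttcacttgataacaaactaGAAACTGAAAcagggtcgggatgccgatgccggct
IFI44L, chr1:78620350-78620409, plus strand: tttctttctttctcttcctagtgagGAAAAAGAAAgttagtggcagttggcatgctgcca
IFI44, chr1:78649729-78649788, plus strand: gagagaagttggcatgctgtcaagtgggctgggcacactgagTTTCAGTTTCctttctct
IFIH1, chr2:162318685-162318744, minus strand: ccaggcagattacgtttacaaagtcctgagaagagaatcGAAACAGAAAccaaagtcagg
IFITM1, chr11:313984-314043, plus strand: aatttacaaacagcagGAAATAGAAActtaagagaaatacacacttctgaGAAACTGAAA
GBP1, chr1:89065301-89065360, minus strand: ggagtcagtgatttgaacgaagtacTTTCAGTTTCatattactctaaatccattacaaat
BST2, chr19:17405720-17405779, minus strand: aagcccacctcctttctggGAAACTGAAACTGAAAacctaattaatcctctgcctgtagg
ISG15, chr1:1013365-1013424, plus strand: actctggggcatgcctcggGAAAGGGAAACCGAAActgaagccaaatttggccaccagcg
IFIT1, chr10:89392495-89392554, plus strand: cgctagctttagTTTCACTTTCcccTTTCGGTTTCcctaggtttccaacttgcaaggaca
The core written TTTCAGTTTC, or GAAACTGAAA on the other strand, is present in *RSAD2*, *ISG20* and *IFI44*, which were higher in OE, and also in *IFITM1*, *GBP1* and *BST2*, which were lower. *BST2* and *ISG15* each carry a pair of cores that share bases. *RSAD2* has 2 RefSeq promoters, and only the 1 printed holds a core. A RefSeq promoter was matched for 31 of the 40 genes, and 20 of the 31 (64.5%) held an ISRE core. Over all genes with a RefSeq promoter the share was 4.38% of 27305 genes, and over all promoters it was 3.57% of 35116. A GAS, searched as TTCNNNGAA, which reads the same on both strands, was present for 8 of the 31 genes (25.8%), against 9.38% of all genes and 7.66% of all promoters. In *IFITM1*, *BST2*, *MX1* and *IFI27* a GAS match overlaps an ISRE core. A match describes the letters of the window only. The windows are placed by RefSeq start sites, and those of *RSAD2*, *ISG20*, *IFI44L*, *IFITM1*, *GBP1*, *ISG15* and *IFIT1* lie wholly or in part inside the span that GENCODE gives for the gene.

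*PPM1K* was counted 37, 19 and 53 times in NC and 3294, 3531 and 2919 times in OE, which follows the genotype entries and not the titles. Its log2 fold change was 6.39 (SE 0.13, edgeR adjusted p = 1.1e-18). Total counts lay between 34635770 and 36116963 in NC and between 36033404 and 39850802 in OE. NC replicate 2 stood apart in the number of genes with any count, 26478 against 22094 to 22913 in the other samples. In the paper's read distribution it also had the highest intronic, intergenic and antisense shares of the 6 samples. Among the genes refitted under every alternative, the calls lost without NC replicate 2 were those of *IFITM3*, *IFNGR2*, *MAVS*, *TAP1* and *APOL2*. All 6 epithelial markers had at least 10 counts in every sample. Of 12 proximal tubule markers, 7 did so, while *LRP2*, *CUBN* and *AQP1* stayed under 10 counts in every sample. None of the 8 leukocyte markers reached 10 counts in every sample, and their summed level was 0.489 to 0.751 CPM (counts scaled to library size) in NC and 0.222 to 0.346 CPM in OE. The summed level of 4 endothelial markers was 5.06 to 6.40 CPM in NC and 6.92 to 8.05 CPM in OE. For 5 fibroblast markers, of which *COL1A1* alone reached 10 counts in every sample, it was 12.9 to 14.3 CPM in NC and 6.16 to 6.92 CPM in OE. The part of these markers' shifts in the results was not tested. In bulk RNA a smaller share of cells that express a gene and less RNA of it per cell cannot be told apart.

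The interferon-stimulated genes did not move together in OE. *RSAD2*, *OASL*, *ISG20*, *TRIM25*, *IFI44L*, *IFI44* and *IFIH1* rose, while *GBP2*, *IFITM1* and *GBP1* fell, and *ISG15*, *IFIT1*, *IFIT3*, *OAS1* and *OAS3* did not pass the test. Of the 40 genes 36 passed the filter on low counts and were tested. At an adjusted p under 0.05, 12 of the 36 (33.3%) were higher in OE, where 24.9% of all 15878 tested genes were, and 7 (19.4%) were lower, where 23.7% of all tested genes were. At this threshold, without a limit on the fold change, both shares were near those of all tested genes. The 40 genes were chosen with earlier results of these data known. The median log2 fold change of the 36 genes was 0.13, and over all tested genes it was -0.0032. The median size of the log2 fold change without its sign was 0.35 for the 36 genes and 0.27 for all tested genes. With the further condition of a fold change above 2 or below 0.5, by which the study named differentially expressed genes (DEGs), 3 of the 36 were DEGs higher in OE (*RSAD2*, *OASL* and *ISG20*), where 1.73% of all tested genes were. DEGs lower in OE were *GBP2* and *IFITM1*, 2 of the 36, where 3.79% of all tested genes were. The paper lists response to virus among the processes enriched in its up-regulated DEGs, and such an enrichment was not tested here. In CPM every OE sample lay above every NC sample for 12 of the 36 genes, against 28.2% of all tested genes, and below every NC sample for 10, against 27.1%. In the remaining 14 the groups overlapped.

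**Figure D1:**
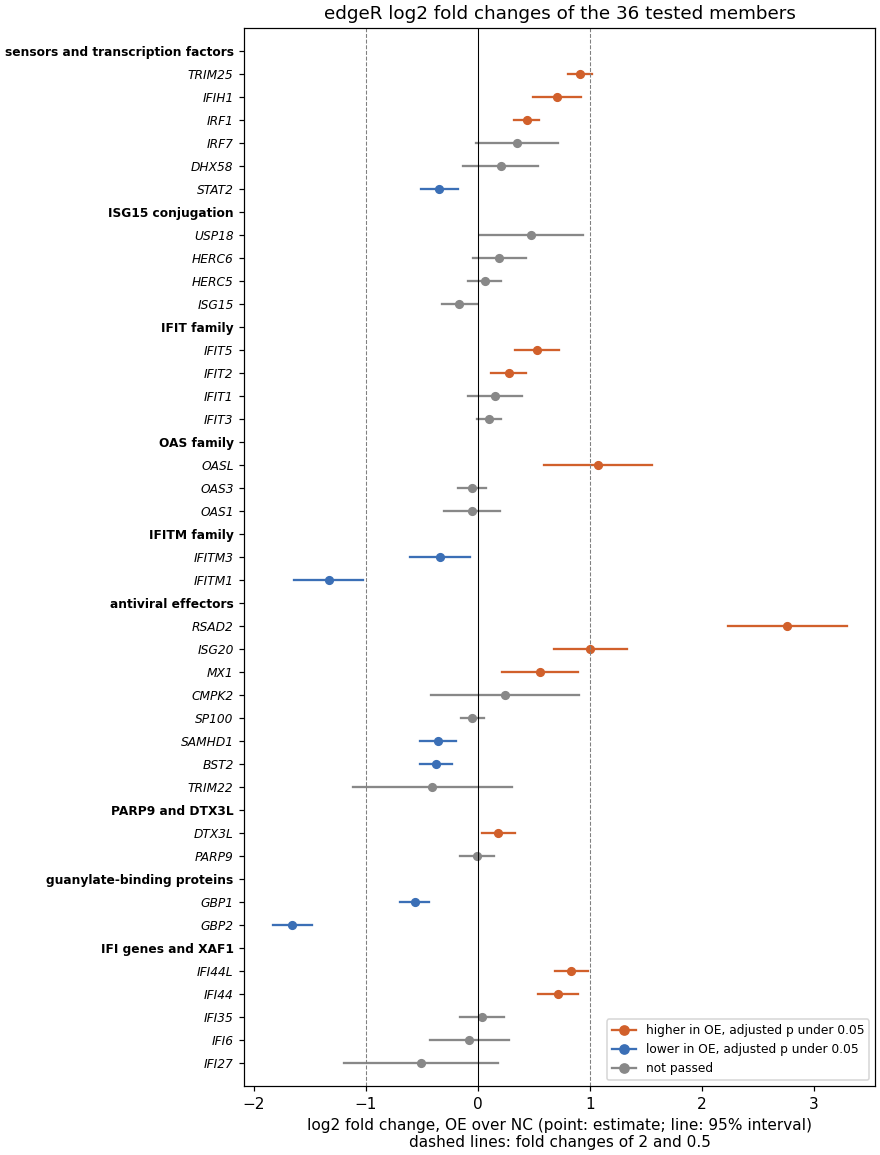
edgeR log2 fold changes of OE over NC (horizontal axis) for the 36 tested interferon-stimulated genes, grouped by role. Points are estimates from 3 NC and 3 OE samples and lines are 95% intervals, with dashed lines at fold changes of 2 and 0.5. *RSAD2* lies farthest to the right at 2.77 and *GBP2* farthest to the left at -1.66, and genes on both sides of 0 occur in several of the role groups.

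The levels of the 40 genes differed far more between genes than between groups. The deposited FPKM divides by a length that followed the whole annotated exonic length of a gene, such as 1101 nt for *BST2* and 13021 nt for *OAS1*. This can exceed the length of the transcript in use, so levels of different genes are only roughly comparable. On this scale *BST2* was at 305, 239 and 282 in NC and at 221, 226 and 199.6 in OE. It alone made up 56.7% to 68.2% of the FPKM summed over the 40 genes. *IFIT3* was next, with a mean of 28.0 ± 1.23 (SD, n = 3) in NC and 30.5 ± 1.62 in OE, and *ISG15* had 28.1 ± 1.61 in NC and 25.4 ± 1.31 in OE. The levels of *IFIT3* and *ISG15* were within their spread of each other in NC. These 3 genes were above an FPKM of 10 in every sample, 22 genes lay between 1 and 10 in every sample, 13 lay under 1 in every sample, and *USP18* and *DHX58* crossed 1. The median over the 40 genes of the mean FPKM was 2.02, close to the 2.27 of all tested genes. The counts of the 40 genes made up 0.112% to 0.117% of all counts in NC and 0.112% to 0.116% in OE, so their total share did not separate the groups.

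**Figure D2:**
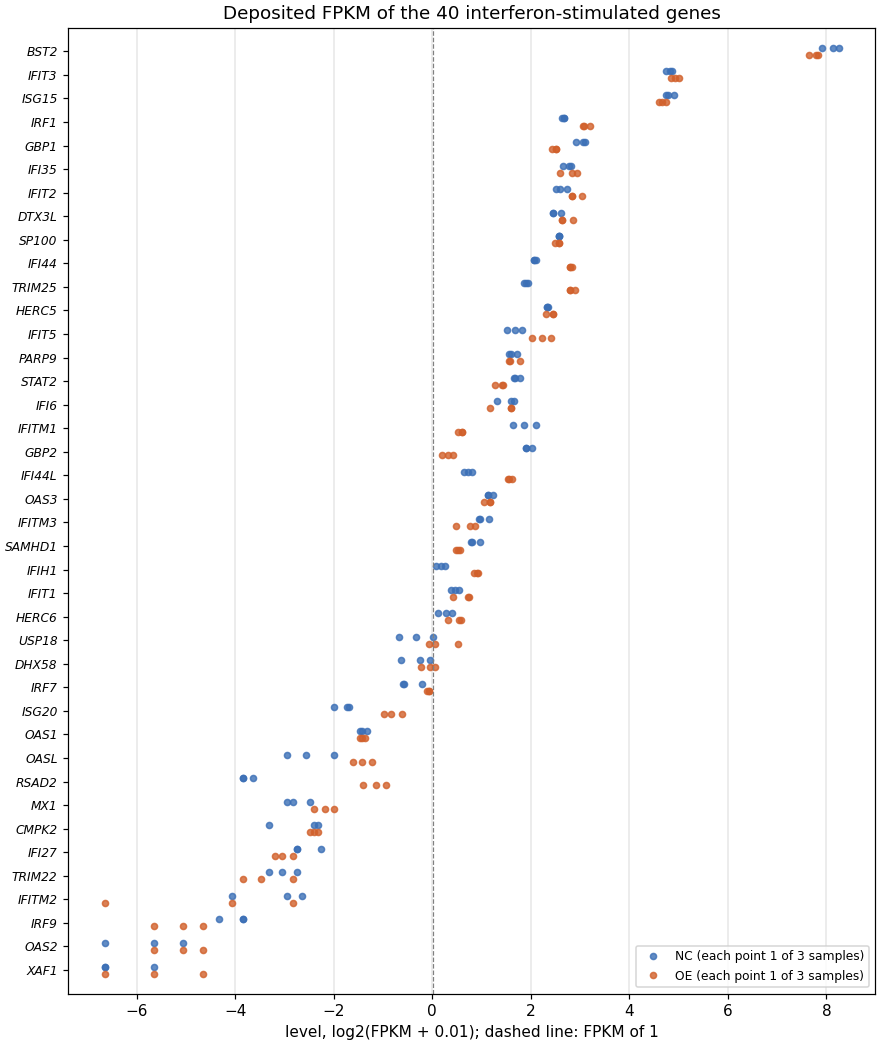
Deposited FPKM of the 40 interferon-stimulated genes in every sample, on a log2(FPKM + 0.01) axis, in order of mean level. Blue points are the 3 NC and orange points the 3 OE samples, and the dashed line marks an FPKM of 1. *BST2* stands apart at the top, *RSAD2*, *GBP2* and *IFITM1* show the widest gaps between groups, and most other genes have points of both groups close together.

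Among the sensors of viral RNA and the transcription factors, *TRIM25* and *IFIH1* rose. *TRIM25*, at chr17:56836387-56914080 (minus strand, GRCh38), encodes a ubiquitin ligase that acts on the RNA sensor RIG-I. Its counts were 1792, 1737 and 1798 in NC and 3478, 3633 and 3540 in OE. The groups were far apart and the samples within each lay close together. The fold change was 1.88 (log2 0.91, SE 0.05, edgeR adjusted p = 1.1e-11). *IFIH1*, at chr2:162267074-162318684 (minus strand), encodes MDA5, a sensor of long double-stranded RNA. It had 198, 235 and 223 counts in NC and 389, 384 and 365 in OE. The lowest OE sample was well above the highest NC sample, and the fold change was 1.63 (log2 0.71, SE 0.10, adjusted p = 9.4e-06). *IRF1*, a transcription factor of the interferon gamma response, rose by 0.44 on the log2 scale with counts of 2918, 2950 and 3029 in NC and 4155, 4766 and 3913 in OE. An antisense gene, *IRF1-AS1*, covers 22.9% of the exonic length of *IRF1* on the other strand and had 211 to 296 counts. The protein-coding gene ENSG00000283782 covers 3.96% on the other strand, inside the stretch that *IRF1-AS1* covers. ENSG00000283782 had 3370, 3517 and 3625 counts in NC and 3829, 4113 and 4389 in OE, so the count of *IRF1* is uncertain. *STAT2*, a subunit of ISGF3, fell by 0.34 on the log2 scale, from 741, 819 and 758 counts to 665, 635 and 641. *DHX58*, a helicase related to MDA5, had an interval of -0.13 to 0.54 around a log2 value of 0.20 (adjusted p = 0.31), which was 0.06 without NC replicate 2, and *IRF7*, which amplifies the production of interferon, had 0.35 (adjusted p = 0.11). *IRF9*, the DNA-binding subunit of ISGF3, had only 6, 8 and 9 counts in NC and 3, 2 and 4 in OE and was not tested. Of its exonic length 23.9% is shared on the same strand with the protein-coding gene ENSG00000259529, which had 635 to 753 counts per sample, so the count of *IRF9* is uncertain.

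The 4 genes of the ISG15 pathway did not pass the test in either direction. *ISG15*, a ubiquitin-like protein that is attached to other proteins, had 893, 901 and 1010 counts in NC and 930, 884 and 839 in OE. In CPM the OE samples lay below the NC samples, and the log2 fold change was -0.17 (95% interval -0.32 to -0.01, adjusted p = 0.070). The adjusted p moved to 0.046 without OE replicate 1, to 0.029 with upper quartile normalization and to 0.049 with library totals alone. *HERC5*, the main human ligase for ISG15, had a log2 fold change of 0.06 with an interval of -0.09 to 0.21. *HERC6*, its neighbour on chromosome 4, had 0.19 with an interval of -0.04 to 0.43. *USP18*, which removes ISG15 and restrains the type I receptor, had few counts, 43, 57 and 72 in NC and 77, 112 and 67 in OE. Its groups overlapped and its log2 fold change was 0.48 (adjusted p = 0.077). Without NC replicate 3 it was 0.67 (adjusted p = 0.033), and without OE replicate 3 it was 0.60 (adjusted p = 0.036).

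The IFIT proteins bind viral RNA and block its translation, and their genes lie in a cluster on chromosome 10. *IFIT5*, at chr10:89414568-89421605 (plus strand), had 522, 595 and 484 counts in NC and 711, 858 and 886 in OE. Its samples varied more than those of *TRIM25*, but the groups did not overlap, and the fold change was 1.44 (log2 0.53, SE 0.10, adjusted p = 1.1e-04). *IFIT2* rose by 0.27 on the log2 scale, with 915, 1005 and 1113 counts in NC and 1236, 1308 and 1355 in OE. It shares 12.1% of its exonic length with the noncoding gene ENSG00000232110, which had fewer counts, 236 to 266 in NC and 124 to 160 in OE. *IFIT1* and *IFIT3*, although they lie in the same cluster, had log2 fold changes of 0.15 (95% interval -0.09 to 0.39) and 0.10 (95% interval -0.01 to 0.21). The interval of *IFIT5* was 0.33 to 0.73, which overlaps that of *IFIT1* and lies above that of *IFIT3*. The differences between these genes were not tested.

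The OAS enzymes answer double-stranded RNA by making a short adenylate chain, and OASL is a relative without that activity. *OASL*, at chr12:121017763-121039246 (minus strand), had 28, 39 and 58 counts in NC and 91, 113 and 77 in OE. The groups did not overlap, but the counts were low and the NC samples spread widely, with a mean of 1.18 ± 0.408 CPM (SD, n = 3) in NC and 2.48 ± 0.369 CPM in OE. The fold change was 2.11 (log2 1.07, SE 0.23, adjusted p = 6.3e-04). Its place among the DEGs rested on single samples, since its log2 fold change was 0.87 without NC replicate 1 and 0.96 without OE replicate 2. *OAS1* and *OAS3* had log2 fold changes of -0.05 each, with intervals of -0.30 to 0.20 and -0.18 to 0.07. *OAS2*, with 0, 7 and 3 counts in NC and 9, 5 and 11 in OE, was not tested.

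The IFITM proteins sit in cell membranes and hinder the entry of viruses, and both tested members of the family were lower in OE. *IFITM1*, at chr11:310041-315272 (plus strand), had 193, 278 and 236 counts in NC and 101, 101 and 96 in OE. The OE samples were nearly alike and all far below the NC samples, and the fold change was 0.397 (log2 -1.33, SE 0.15, adjusted p = 1.8e-07). *IFITM3* had 205, 214 and 245 counts in NC and 207, 202 and 151 in OE. Its log2 fold change was -0.34 (adjusted p = 0.037), and in 7 of 15 alternative analyses the call was lost, with an adjusted p of 0.15 without NC replicate 3, 0.16 without OE replicate 3, 0.054 without NC replicate 2 and 0.059 without OE replicate 2. *IFITM2* had 3, 9 and 7 counts in NC and 8, 0 and 3 in OE and was not tested. *IFITM2* and *IFITM3* are closely related copies and only uniquely mapped reads were counted, so the counts of this pair are uncertain. *IFITM1* also shares 21.1% of its exonic length with ENSG00000288681, which had 4 to 19 counts.

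The antiviral effectors, proteins that act on the virus itself, moved in both directions. *RSAD2*, at chr2:6865557-6898239 (plus strand), encodes viperin, an enzyme that turns the nucleotide CTP into a chain terminator of viral RNA synthesis. It had 12, 16 and 13 counts in NC and 83, 105 and 111 in OE. Its level rose from 0.387 ± 0.0591 CPM (SD, n = 3) to 2.65 ± 0.404 CPM with a wide gap between the groups, and the fold change was 6.80 (log2 2.77, SE 0.25, adjusted p = 1.5e-08). Even so its FPKM in OE was only 0.37, 0.44 and 0.51. *CMPK2*, the nucleotide kinase gene beside it on the opposite strand, had 31, 30 and 15 counts in NC and 32, 35 and 29 in OE. The groups overlapped and the log2 fold change was 0.24 with an interval of -0.42 to 0.90. The 2 genes overlap over 6.20% of the exonic length of *RSAD2* and 8% of that of *CMPK2*.

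*ISG20*, at chr15:88635670-88656483 (plus strand), encodes an exonuclease that degrades single-stranded RNA. It had 77, 68 and 83 counts in NC and 143, 168 and 176 in OE. The groups did not overlap and the fold change was 2.01 (log2 1.00, SE 0.16, adjusted p = 2.0e-05). The fold lay at the limit for a DEG, and the log2 value was 0.94 without NC replicate 2, 0.91 without OE replicate 3, 0.97 with upper quartile normalization and 0.99 with library totals alone. *MX1*, at chr21:41420020-41470071 (plus strand), encodes a GTPase that traps viral nucleocapsids. It had 83, 116 and 92 counts in NC and 128, 163 and 164 in OE. The highest NC sample came close to the lowest OE sample, and the fold change was 1.47 (log2 0.55, SE 0.16, adjusted p = 0.0077). With limma on FPKM the adjusted p was 0.066 with a pseudocount of 1 and 0.062 with 0.1.

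*BST2* encodes tetherin, which holds budding viruses on the cell surface. It had 12522, 10211 and 12101 counts in NC and 9756, 10517 and 8431 in OE, and fell by 0.37 on the log2 scale (SE 0.07, adjusted p = 1.1e-04). In CPM the groups did not overlap. *SAMHD1*, which depletes the nucleotides for reverse transcription, fell by 0.36, from 690, 730 and 818 counts to 599, 649 and 610. *SP100*, a nuclear body protein, had a log2 fold change of -0.05 with a narrow interval of -0.15 to 0.05. *TRIM22*, a ubiquitin ligase, had 15 to 32 counts in every sample and a log2 fold change of -0.41 with an interval from -1.12 to 0.30, and with a sample left out the value lay between -0.74 and -0.18.

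**Figure D3:**
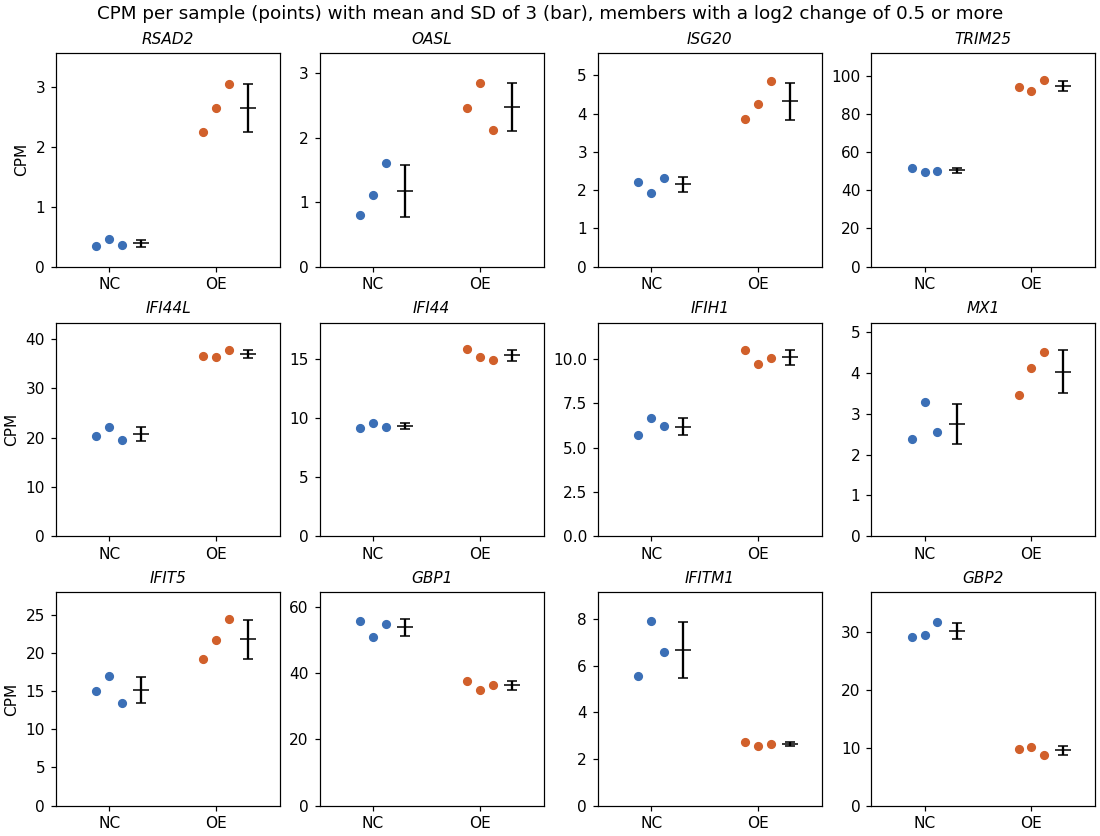
CPM per sample of the 12 interferon-stimulated genes that passed the test with a log2 fold change of at least 0.5 or at most -0.5, 1 panel a gene, each with its own axis from 0. Points are the 3 samples of NC (blue) and OE (orange) and bars are the mean with its SD. For the first 9 genes every OE sample lies above every NC sample, with the narrowest gap for *MX1*, and for *GBP1*, *IFITM1* and *GBP2* every OE sample lies below.

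*PARP9* and *DTX3L* encode partners of a ubiquitin ligase complex and are read from a shared promoter in opposite directions. *DTX3L* had 1173, 1365 and 1234 counts in NC and 1438, 1519 and 1597 in OE. In CPM its groups overlapped, and the log2 fold change of 0.18 (adjusted p = 0.040) was lost in 9 of 15 alternative analyses. Without NC replicate 1, NC replicate 3 or OE replicate 3 the adjusted p was 0.16, 0.13 and 0.19. *PARP9* had 1100, 1016 and 1050 counts in NC and 1055, 1124 and 1174 in OE and a log2 fold change of -0.01 with an interval of -0.16 to 0.15. The single ISRE core between them is the same stretch of sequence read from either strand.

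The guanylate-binding proteins are large GTPases that attack the vacuoles of bacteria and parasites, and their genes answer to interferon gamma in particular. Both members were lower in OE. *GBP2*, at chr1:89106132-89150456 (minus strand), had 1011, 1037 and 1140 counts in NC and 358, 403 and 315 in OE. The groups were far apart, with 30.1 ± 1.43 CPM (SD, n = 3) in NC and 9.52 ± 0.775 CPM in OE, and the fold change was 0.317 (log2 -1.66, SE 0.08, adjusted p = 1.1e-12). *GBP1*, at chr1:89051882-89065360 (minus strand), had 1945, 1790 and 1971 counts in NC and 1390, 1385 and 1326 in OE. Again no OE sample reached an NC sample, and the fold change was 0.676 (log2 -0.57, SE 0.06, adjusted p = 1.3e-07). *GBP2* shares 8.60% of its exonic length with *GBP7*.

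Of the genes named for their induction by interferon alone, *IFI44* and *IFI44L* rose, and they lie side by side on chromosome 1. *IFI44L*, at chr1:78619902-78646145 (plus strand), had 710, 784 and 701 counts in NC and 1353, 1441 and 1374 in OE. The fold change was 1.78 (log2 0.83, SE 0.07, adjusted p = 5.0e-09). *IFI44*, at chr1:78649796-78664078 (plus strand), had 317, 338 and 332 counts in NC and 583, 600 and 542 in OE, with a fold change of 1.64 (log2 0.71, SE 0.08, adjusted p = 5.3e-07). In neither gene did the groups overlap. *IFI35* and *IFI6* had log2 fold changes of 0.04 and -0.08 with overlapping groups. *IFI6* shares 23.1% of its exonic length with *LINC02574*, which had 9 to 34 counts. *IFI27* had 16 to 32 counts in every sample and a log2 fold change of -0.51 with an interval of -1.20 to 0.18, which was -0.29 without NC replicate 2. *XAF1*, which promotes apoptosis, had 0 to 7 counts and was not tested.

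Genes with an ISRE core were found on both sides. Of the 20 tested genes with a core, 8 were higher, 4 lower and 8 did not pass, with a median log2 fold change of 0.08. Of the 9 tested genes with RefSeq promoters that held no core, 2 (*TRIM25* and *IRF1*) were higher, 2 (*STAT2* and *SAMHD1*) were lower and 5 did not pass, with a median of 0.04. For 7 tested genes no RefSeq promoter was matched, and of these 2 were higher, 1 was lower and 4 did not pass. Over all tested genes 24.9% were higher and 23.7% lower, with a median of -0.0032. The shares were 40% higher and 20% lower with a core and 22.2% in each direction without one, the latter near the shares over all genes, and the difference between these groups was not tested. The 8 genes with a GAS match were *IRF1* and *MX1*, which were higher, *BST2* and *IFITM1*, which were lower, *IFI27*, *IFI35* and *OAS1*, which did not pass, and *IRF9*, which was not tested. *GBP2*, *OASL* and *IFIT2* were among the genes with no matched promoter.

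**Figure D4:**
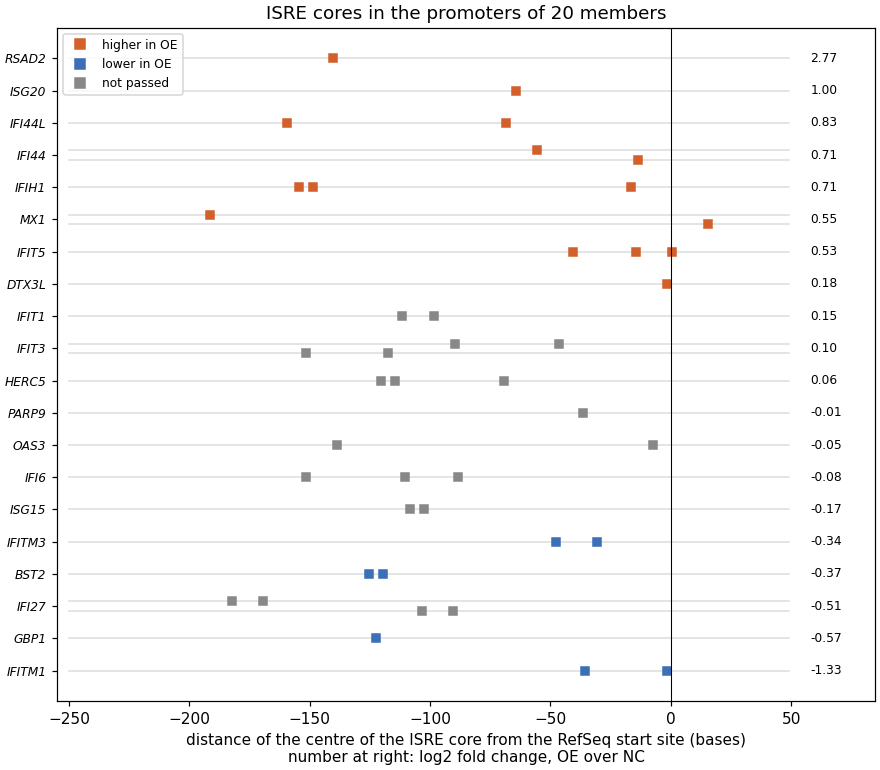
Position of each ISRE core in the RefSeq promoters of 20 interferon-stimulated genes, as the distance of its centre from the start site in bases (horizontal axis), with genes ordered by log2 fold change (number at right). A grey line is 1 promoter that holds a core and colours give the result of the edgeR test. Cores of genes that were higher, lower or not called all lie within 200 bases before the start site or just after it, and the positions of the 3 colours overlap.

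The other genes of the interferon pathway were taken from a list of 39, of which 29 were in the count table and 23 were tested. Of these 23 genes, 4 (17.4%) were higher and 9 (39.1%) lower in OE, against 24.9% and 23.7% of all tested genes, and none was a DEG. With upper quartile normalization 3 were higher and 11 lower, with DESeq2 4 and 7, and 3 and 6 without NC replicate 1. This list too was chosen with earlier results of these data known, so its shares are description only. None of the 10 listed interferon genes was tested. *IFNE*, *IFNK*, *IFNL2* and *IFNL3* had 0 to 4 counts in any sample and the other 6 were not among the genes of the table used here. Among the receptors, *IFNAR1* rose by 0.30 on the log2 scale (adjusted p = 0.0017), with 791, 828 and 899 counts in NC and 1024, 1161 and 1121 in OE. Its partner in the type I receptor, *IFNAR2*, fell by 0.26 (adjusted p = 0.0016), with 1362, 1304 and 1344 counts in NC and 1181, 1233 and 1144 in OE. The type II receptor was split in the same manner, with log2 fold changes of 0.20 for *IFNGR2* and -0.21 for *IFNGR1* (adjusted p = 0.019 for both). *IFNGR2* did not pass with upper quartile normalization or without NC replicate 1, NC replicate 2 or OE replicate 2, and *IFNGR1* did not pass without NC replicate 1 or OE replicate 1. *IFNLR1*, of the type III receptor, had 0.19 (adjusted p = 0.35), and its partner *IL10RB* had 1 to 10 counts and was not tested.

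Among the kinases and their inhibitors, *JAK1*, which serves all interferon receptors, fell by 0.49 on the log2 scale (adjusted p = 2.6e-07), with counts of 9772 to 10322 in NC and 7031 to 7894 in OE, and *TYK2* had -0.19 (adjusted p = 0.035). *JAK2* rose by 0.74 (adjusted p = 0.0024) from low counts of 64, 58 and 82 to 96, 128 and 139. *SOCS3*, an inhibitor of JAK kinases, fell by 0.55 (adjusted p = 8.6e-07), while *SOCS1* and *PIAS1* did not pass.

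Among sensors of nucleic acids and their adaptors, *IFI16*, a sensor of DNA, had 3247, 3355 and 3342 counts in NC and 5868, 6320 and 5724 in OE. The groups were far apart, and it rose by 0.76 on the log2 scale (SE 0.05, adjusted p = 4.5e-11). The adaptors *TICAM1*, *MYD88* and *MAVS* and the transcription factor *IRF3* were lower, with log2 fold changes of -0.32, -0.28, -0.13 and -0.33. The call of *MAVS* was lost in 10 of 15 alternative analyses, among them those without any 1 sample other than OE replicate 3. That of *TYK2* was lost in 9 of 15, among them those without NC replicate 1, NC replicate 3, OE replicate 2 or OE replicate 3. *RIGI*, listed in the table as *DDX58*, had 0.19 (adjusted p = 0.080). *TLR3*, *TRAF3*, *CGAS*, *TBK1*, *IKBKE* and *STING1* did not pass.

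A further list held 37 other genes induced by interferon, of which 35 were in the table and 31 were tested. In OE 13 of the 31 (41.9%) were higher and 2 (6.45%) were lower, against 24.9% and 23.7% of all tested genes, and none of them was a DEG. With upper quartile normalization 9 were higher and 5 lower. As this list was also chosen with earlier results of these data known, its shares are description only. The median log2 fold change was 0.12. *APOL6* rose by 0.76, with 965, 995 and 941 counts in NC and 1625, 1741 and 1849 in OE, and *TRIM14*, *ZC3HAV1*, *PARP10*, *EIF2AK2* and *TRIM21* rose by 0.54, 0.50, 0.37, 0.30 and 0.29. *ZC3HAV1* encodes the zinc finger antiviral protein, and *EIF2AK2* encodes PKR, a kinase that halts translation on double-stranded RNA. The other 7 higher genes had log2 fold changes of 0.17 to 0.43. Of 15 alternative analyses the call was lost in 10 for *APOL2*, 8 for *TAP1*, 8 for *NLRC5*, 6 for *PNPT1*, 3 for *PSMB9*, 2 for *SAMD9L* and 0 for *DDX60*. With 1 sample left out, *APOL2* did not pass without NC replicate 1 or 2 or OE replicate 1 or 2 (adjusted p = 0.13, 0.16, 0.21 and 0.086). *TAP1* did not pass without NC replicate 2 or 3 or OE replicate 2 or 3 (0.13, 0.077, 0.11 and 0.051), and *NLRC5* without NC replicate 3 or OE replicate 1 or 3 (0.11, 0.053 and 0.073). *PNPT1* did not pass without NC replicate 1 or 3 or OE replicate 2 or 3 (0.13, 0.078, 0.13 and 0.054). *PSMB9* was lost without NC replicate 3 or OE replicate 1 or 2 (0.090, 0.15 and 0.051) and *SAMD9L* without NC replicate 1 or OE replicate 2 (0.078 and 0.077). *APOL1* fell by 0.61 (adjusted p = 1.2e-08) and *SHFL* by 0.27 (adjusted p = 0.019), the latter not passing without NC replicate 3 or OE replicate 3. *BATF2* and *EPSTI1* had log2 fold changes of 0.85 and -0.51 that did not pass (adjusted p = 0.069 and 0.061), and that of *BATF2* lay between 0.57 and 1.37 when a sample was left out. *MX2*, *RTP4*, *CXCL11* and *LGALS9* had 0 to 8 counts in every sample and were not tested.

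**Figure D5:**
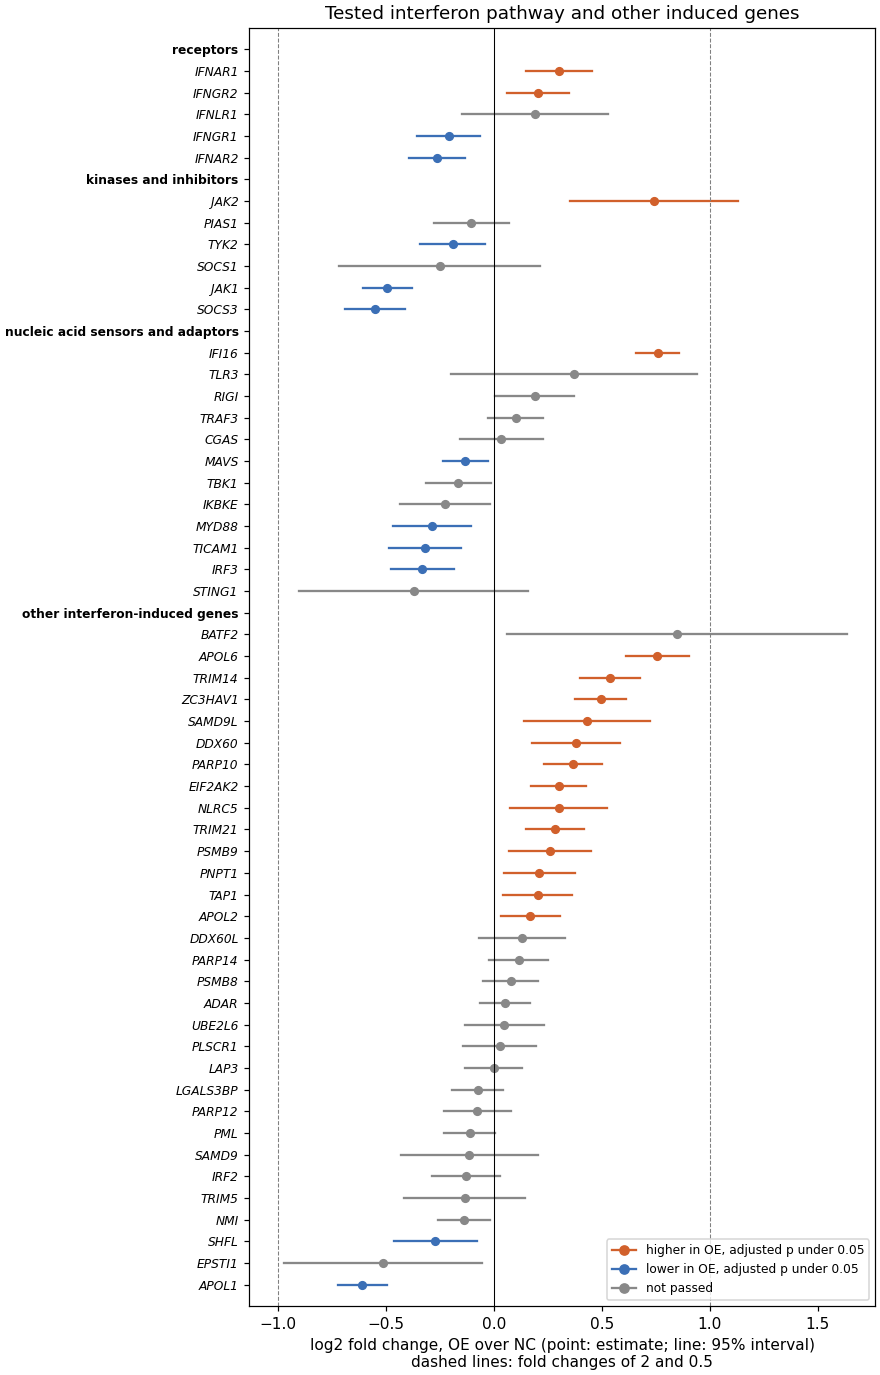
edgeR log2 fold changes of OE over NC (horizontal axis) for the 23 tested genes of the interferon pathway and the 31 other tested interferon-induced genes, with 95% intervals from 3 NC and 3 OE samples and dashed lines at fold changes of 2 and 0.5. *JAK1* and *SOCS3* lie left of 0 and *JAK2* and *IFI16* right of it, and in the lowest group more of the called genes lie right of 0 than left.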

How the data were processed

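The deposited counts are whole numbers per gene, drawn from uniquely mapped reads. Their totals lie near the paper's numbers of uniquely concordant read pairs, not of reads, so a count appears to be a pair. The authors dropped reads with over 2 undetermined bases, trimmed with FASTX-Toolkit, removed the shortest reads and aligned to GRCh38 with HISAT2. The submitters' processing notes name mm10 as a further build. The counting program, the annotation and the use of strand, from stranded libraries, are not given in the sources used here, so counts of overlapping and antisense genes are uncertain. The authors also deposited FPKM to 2 decimals, normalized to a length per gene and library size, used here for levels. Sample groups follow the genotype entries and table columns NC and OE.

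R 4.3.3 with edgeR 4.0.16 (filterByExpr, TMM, glmQLFit, glmQLFTest) was run on the deposited counts and tested 15878 genes on all 6 samples with no covariate, with Benjamini-Hochberg adjustment over all of them. "Higher", "lower", "rose" and "fell" mean an adjusted p under 0.05. Standard errors and 95% intervals were computed from each F statistic. CPM of single genes used TMM library sizes, while the summed CPM of markers used total counts without TMM. The fit was tested on simulated data. The common coefficient of variation between samples was 6.30%, and no sample duplicated another of its group (mean chi-square per gene of 5.13 to 11.8). Alternatives were DESeq2 1.42.0, limma 3.58.1 on log2(FPKM + 1) and log2(FPKM + 0.1), other normalizations and filters, glmTreat, a replicate block and leaving out each sample. GENCODE release 44, in which 99.8% of gene identifiers were found, gave coordinates and overlaps, and RefSeq on GRCh38.p14 gave promoters. Python 3.11.15, pandas 2.3.3 and matplotlib 3.10.9 made tables and figures.

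The members and lists were chosen with earlier results of these data known. Members that passed with a log2 fold change of at least 0.5 or at most -0.5 are given in full, and of the pathway and other induced genes the up to 6 with the smallest adjusted p in each direction and those with a log2 fold change of that size. *IFNGR1*, *TYK2*, *MAVS*, *APOL2*, *TAP1*, *NLRC5*, *PNPT1*, *PSMB9*, *SAMD9L* and *DDX60*, and the genes given with log2 values though they did not pass, were added after their values were seen. Replicate numbers 1 to 3 occur in both groups. Some results were left out and are not reported here.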

Additional observations from a re-analysis of the deposited data

How the results depend on the processing

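All 19 interferon-stimulated genes that passed kept their direction in 15 alternatives each, and 16 kept their side of the threshold in all of them. The exceptions were *IFITM3*, *DTX3L* and *MX1*, with 18 of 285 values no longer past the threshold. The counts of 12 higher and 7 lower genes lay between 10 and 12 and between 6 and 8. DEG counts moved most: with limma on log2(FPKM + 1), which compresses low values by its construction, 0 were higher and 1 was lower, with limma on log2(FPKM + 0.1) 1 was higher, and with glmTreat against a fold change of 2, 1 was higher and 1 lower. Leaving out each sample gave 2 to 3 DEGs higher in OE. Other interferon-induced genes lower in OE went from 2 to 5 with upper quartile normalization, to 4 with at least 10 counts in every sample and to 1 to 4 when a sample was left out (1 without NC replicate 3 or OE replicate 3). Those higher, 13 in all samples, numbered 8 to 13 with a sample left out (8 higher and 4 lower without OE replicate 2). The cause was not tested. Upper quartile normalization moved the median of all tested genes to -0.04.

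Among the 17 genes that did not pass, the sign turned for *PARP9* (0.0096 and 0.0121 with limma at a pseudocount of 1 and 0.1), *IFI35* (-0.0022 with upper quartile normalization), and, with a sample left out, for *PARP9* (-0.0719 to 0.0407), *IFI35* (-0.0385 to 0.1345), *CMPK2* (-0.0311 to 0.4281, below 0 without NC replicate 3) and *IFI6* (-0.1678 to 0.0487, above 0 without OE replicate 1). *IRF7* passed with limma on log2(FPKM + 1).

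Same-numbered samples did not deviate together (correlations over genes of -0.00319, -0.0663 and -0.0542). With 3 samples a group, these correlations cannot tell whether same-numbered samples shared a culture or batch. With the replicate block 11 genes were higher and 6 lower, *IFITM3* (adjusted p = 0.051) and *DTX3L* (adjusted p = 0.062) being lost. *PPM1K* kept 6.39, pathway genes gave 4 higher and 7 lower, and other induced genes 10 and 2. Depth limits *RSAD2*, *OASL*, *CMPK2*, *IFI27*, *TRIM22*, *IRF7* and *USP18*, whose counts stayed at or under 113 in every sample, and the 4 genes not tested.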
